A study of Mus musculus with 9 samples.

Results

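The genes described here are 10 genes of the calcium store of heart muscle: Ryr2, Atp2a2, Pln, Sln, Casq1, Casq2, Slc8a1, Trdn, Jph2 and Hrc. Members were every probe set whose platform annotation names 1 of these genes and no other, which gave 28 of the 45037 probe sets that are not array controls. Each gene had at least 1: Atp2a2 and Trdn had 6 each, Slc8a1 4, Pln 3, Ryr2, Sln and Jph2 2 each, and Casq1, Casq2 and Hrc 1 each. Of the 28, 27 were above the level used to leave out dim probe sets, a mean signal of about 21.7 over all arrays, and each gene kept at least 1.

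Messenger RNA was measured on 9 Affymetrix arrays of cardiac ventricle from male mouse fetuses at E18.5, the embryonic day, delivered by caesarean. The fetuses were wild type (ERRg +/+, here WT), heterozygous (ERRg +/-, HET) or knockout (ERRg -/-, KO) for Esrrg, the gene of estrogen-related receptor gamma, an orphan nuclear receptor, with 3 arrays for each genotype and no other allele or treatment in the labels. The labels call the arrays biological replicates, but each also names 3 ventricles as its source, so an array may hold pooled tissue and p-values measure only the spread between these arrays. How the allele was made, the strain and whether the groups were littermates were not given in the sources used here. Signals are MAS5 values, a linear brightness for each probe set, with the same trimmed mean, 200, on every array as deposited, and log2 differences are of log2(signal + 16). Levels are compared between genotypes within a probe set and never between probe sets. Ventricle is a mixed tissue, so fewer cells of a type and less RNA per cell cannot be told apart.

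In a heartbeat, calcium entering through surface channels opens the ryanodine receptor, the release channel of the sarcoplasmic reticulum, and the released calcium starts contraction. The pump SERCA returns the calcium to the store under restraint by small membrane peptides, and the sodium-calcium exchanger carries the rest out of the cell. Within the store, calsequestrin binds calcium and triadin holds it near the release channel, while junctophilin keeps the store close to the surface membrane. In rodents this store matures around and after birth, when it takes a growing part in each beat.

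The targeted gene followed the labels: the brightest Esrrg probe set had a mean signal of 233 in WT, 163 in HET and 51.9 in KO, with no overlap between genotypes (exact two-sided permutation test, p = 0.1 for each pair, the smallest that 3 against 3 arrays allow). The other 2 Esrrg probe sets were dim and overlapped between KO and WT (exact p = 0.7 each), and their position against the alteration in the gene was not given. The ventricular marker genes Myl2, Myl3, Irx4 and Hey2 were all above the dim level, and array medians ran from 36.6 to 45.9. The summed signal of 8 general cardiomyocyte genes was 133446 to 141879 in WT, 120559 to 133624 in HET and 120197 to 133586 in KO, and that of 4 conduction system genes was 240.1 to 295.6, 158 to 305.6 and 174.2 to 206. The sums of the ventricular, endothelial, fibroblast, smooth muscle and erythroid lists were 58892 to 64527 in WT against 53367 to 57409 in KO (ventricular), 4216 to 4595 in WT against 3949 to 4328 in KO (endothelial), 22222 to 25052 in WT against 24455 to 24925 in KO (fibroblast), 17204 to 19476 in WT against 19254 to 21302 in KO (smooth muscle) and 1134 to 1682 in WT against 1337 to 1755 in KO (erythroid). The erythroid sum holds 4 of the 6 genes listed, with Hba-a1 below the dim level. The smooth muscle list was Myh11, Cnn1, Acta2, Tagln and Des, and whether other cells also make these was not tested. The ventricular sums of KO and WT did not overlap, nor did the conduction system sums or the skeletal muscle sums given below with Casq1. The part of these sums in the results was not tested. The ventricular genes did not all move one way. By brightest probe set, KO minus WT was -0.17 for Myl2, -0.14 for Myl3, -0.05 for Irx4 and 0.86 for Hey2. The arrays fell into 2 sets in the bacterial poly-A spike-in controls, which are added to each RNA sample. The log2 ratio of the spike-in thr to the spike-in dap was -1.02 to -0.81 on the 3 WT arrays and HET replicate 1, and -1.33 to -1.20 on HET replicates 2 and 3 and the 3 KO arrays. These are called the higher-ratio and lower-ratio arrays below. The sources used here do not say what set them apart. All WT arrays were higher-ratio and all KO arrays lower-ratio, so for these genotypes alone the spike-in set and the genotype cannot be told apart. A fit with the spike-in set as a block takes KO minus WT through the HET arrays and so rests on the single higher-ratio HET array. Its values are printed beside the differences of the members. For Myl2, Myl3, Irx4 and Hey2 this fit gave 0.10, -0.04, 0.07 and -0.24.

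Between KO and WT, 1 of the 27 tested probe sets was called (limma, adjusted p under 0.05 over all 27022 probe sets tested): that of Casq2, which fell in KO. Of all probe sets 0.633% were called, 106 of them higher and 65 lower in KO, or 6 higher and 8 lower with the arrays brought to one median. In KO, 15 of the 27 were lower than in WT, against 47.8% of all. Readings of KO and WT were fully apart in 12 of the 27, from 7 genes, against 23% of all probe sets tested. Of these 12, 9 were lower and 3 higher in KO, and the 3 higher ones were all of Trdn. An unadjusted p under 0.05 was found for 6 of the 27 (22.2%), against 15.7% of all. The median log2 difference over the 27 was -0.05, beside 0.02 over all probe sets tested. The higher-ratio and lower-ratio arrays did not overlap in 9 of the 27, against 11.8% of all, and Casq2 was 1 of the 9. With the spike-in set as a block no member was called, against 0.0037% of all, 2 had an unadjusted p under 0.05 (6.25% of all), and the median difference was 0.03, beside 0.02 over all probe sets. The sign of the difference turned with the block in 12 of the 27.

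**Figure D1:**
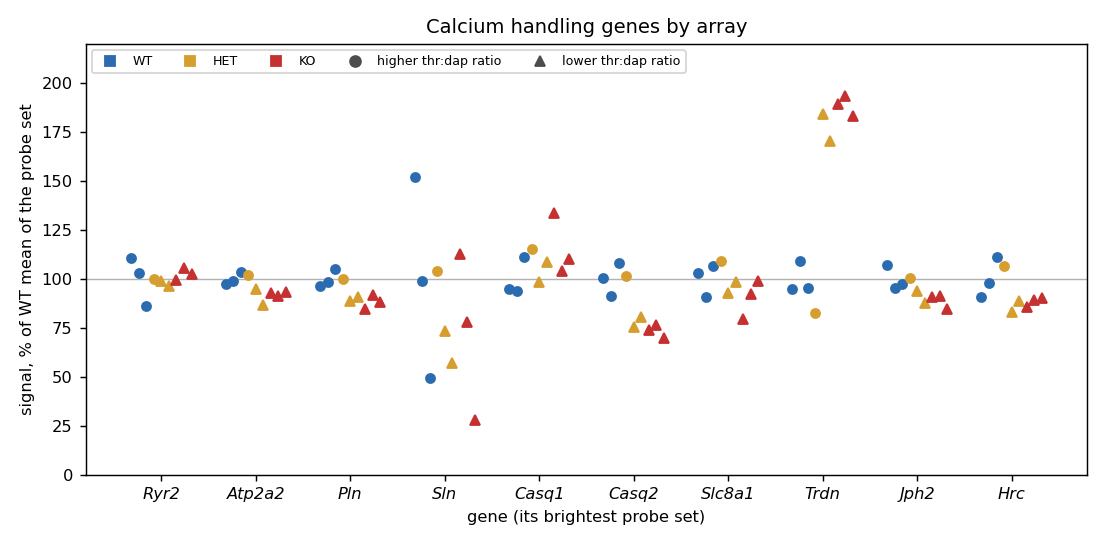
Signal of the brightest probe set of each of the 10 genes on every array, as a percentage of that probe set's WT mean; colours give the genotype and marker shapes the spike-in set. In Casq2 and Trdn the HET array marked by a circle lies nearest the WT arrays and the HET arrays marked by triangles lie nearest the KO arrays.

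The pump gene Atp2a2 encodes SERCA2, which refills the store, and lies on chromosome 5 at chr5:122453513-122502225 (GRCm38.p6). Its brightest probe set, 1416551_at, read 18854, 19121 and 20076 for WT, 19758, 18396 and 16756 for HET, and 17968, 17714 and 18078 for KO. Every KO array was below every WT array, but by little: KO averaged 92.6% of WT, and the log2 difference of -0.11 had a 95% interval of -0.24 to 0.02 (limma, adjusted p = 0.432). The probe set 1452363_a_at, built to detect several transcripts of the gene, gave 14691 ± 726 in WT and 13170.0 ± 213 in KO (SD, n = 3 each), a difference of -0.16 ± 0.06 (standard error, limma adjusted p = 0.245). The 4 dimmer ones had differences of -0.01 to 0.21 (-0.03 to 0.28 with the spike-in block), so of 6 probe sets 3 were lower and 3 higher in KO and none was called. With the spike-in block the 2 brightest gave 0.06 ± 0.09 and 0.01 ± 0.09. In both, HET replicate 1 read within the range of the WT arrays, and HET replicates 2 and 3 read below every WT array.

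Pln encodes phospholamban, the peptide that restrains SERCA2 until it is phosphorylated (chr10:53337686-53345999). All 3 of its probe sets were lower in KO, and in each the highest KO reading was below the lowest WT reading. The brightest, 1450952_at, read 17711, 18111 and 19293 for WT, 18345, 16275 and 16699 for HET, and 15591, 16889 and 16252 for KO. This put KO at 88.4% of WT, with a log2 difference of -0.18 ± 0.06 (limma, adjusted p = 0.167, or 0.0425 without HET replicate 1). The other two, 1423359_at and 1460332_at, gave KO at 94.4% and 93.5% of WT, with differences of -0.08 ± 0.06 and -0.10 ± 0.06. The spike-in block left these at -0.15 ± 0.08 and -0.12 ± 0.09 but brought the brightest to -0.02 ± 0.09. The probe sets of Pln thus had one sign, but none passed the test. The cardiomyocyte sum above ran lower in KO than in WT, with ranges that just overlapped. Of the 16 tested probe sets of its list 11 were lower in KO, against 47.8% of all. Their median difference was -0.12, or 0.006 with the spike-in block. The part of the cardiomyocyte sum in the Pln and Atp2a2 readings was not tested.

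Sln encodes sarcolipin, a SERCA inhibitor related to phospholamban that in mice is known as an atrial rather than a ventricular transcript (chr9:53850251-53853849). Its brighter probe set, 1420884_at, varied widely within each genotype, at 1128, 734 and 365 for WT, 773, 546 and 424 for HET, and 836, 579 and 209.5 for KO. The genotypes overlapped, and the log2 difference between KO and WT was -0.51 with a 95% interval of -1.37 to 0.36 (limma, adjusted p = 0.608). It was 0.16 ± 0.70 with the spike-in block. In each genotype the array numbered 1 read highest and the array numbered 3 lowest, an order shared by 0.563% of all probe sets tested. Any one order common to the 3 genotypes was found in 2.81% of all. Among the members Pln 1460332_at also had a common order, the reverse of that of Sln. The labels do not say that a number marks a shared litter or day, and over all probe sets arrays of one number did not deviate together. The other Sln probe set, 1420883_at, read 2.01 to 34 and lay below the dim level.

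Genes of an atrial list were looked at beside Sln. All 9 were above the dim level, and their summed signal was 31813 to 36743 in WT, 34192 to 37492 in HET and 34392 to 40327 in KO. The atrial light chain gene Myl7 read 10496, 10285 and 8244 for WT, 11559.8, 11348 and 9829.8 for HET, and 12254, 12459 and 10568 for KO. Array 3 was thus the lowest of its genotype in Myl7 as in Sln, whereas array 1 was the highest only in WT and HET. Nppa, which encodes atrial natriuretic peptide and is also made by fetal ventricle, had the order of Sln in each genotype, with 13206, 12999 and 12959 for WT, 14523, 13746 and 13390.3 for HET, and 16161, 15246 and 14901 for KO. Myl7 and Nppa are only part of the list, and the order of the arrays in its other genes is not described here. The median difference of the list was 0.14, or 0.38 with the spike-in block. Myl7 and Nppa were higher in KO than in WT (0.29 and 0.24, or 0.42 and 0.34 with the block), whereas 6 of the 14 tested probe sets of the list were lower. Among these were the brightest of Myl4 (-0.19) and of Nr2f2 (-0.20), with -0.08 and -0.18 under the block. The part of atrial tissue in the scatter of Sln was not tested.

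The calsequestrins bind calcium inside the store: Casq2 is the cardiac form and Casq1 the form of fast skeletal muscle. Casq2 (chr3:102086415-102146514) read 12591, 11432 and 13537 for WT, 12691, 9481 and 10061 for HET, and 9251, 9580.2 and 8765 for KO. All KO readings were below all WT readings. HET replicate 1 lay among the WT arrays, and HET replicates 2 and 3 lay below every WT array, at or a little above the KO level. The KO mean was 73.5% of WT, a fall by 0.44 ± 0.09 on the log2 scale (limma, adjusted p = 0.0481). With the spike-in block the difference was -0.06 ± 0.11 (95% interval -0.30 to 0.17, adjusted p = 0.956). The call was also lost when any single WT or KO array was left out. Among the HET arrays the lower-ratio ones differed from the higher-ratio one by -0.38, and within the lower-ratio arrays KO minus HET was -0.09. Its only probe set, 1422529_s_at, is of a kind whose probes can match transcripts of more than 1 gene, although the platform annotation names only Casq2.

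Casq1 (chr1:172209894-172219895) went the other way without passing the test. Its probe set 1422598_at read 2355, 2331 and 2761 for WT, 2861, 2439 and 2692 for HET, and 3314, 2583 and 2730.4 for KO. The genotypes overlapped, with KO at 116% of WT and a log2 difference of 0.21 ± 0.10 (limma, adjusted p = 0.344). It was 0.36 ± 0.17 with the spike-in block, with an unadjusted p of 0.0443 (limma, adjusted p = 0.795). Skeletal muscle markers were looked at beside Casq1: of 12, Actn3, Myf5, Myf6, Myog, Pax7 and Tnnt3 were below the dim level, and the summed signal of the list was 432 to 483 in WT, 492 to 557 in HET and 518 to 590.5 in KO. The KO and WT sums did not overlap. Of the 7 tested probe sets of the list, 0 were fully apart between KO and WT, against 23% of all. An unadjusted p under 0.05 was found for 0 of them (limma), against 15.7% of all. The part of skeletal muscle in the Casq1 reading was not tested.

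Trdn encodes triadin, which links calsequestrin to the release channel and is made in several splice forms (chr10:33083483-33476709). Its brightest probe set, 1451801_at, read 752, 866 and 757 for WT, 652, 1457 and 1349 for HET, and 1499, 1531 and 1451 for KO. The HET arrays fell apart: replicate 1 was below every WT array, and replicates 2 and 3 were near the KO arrays. KO averaged 189% of WT, and the log2 difference of 0.91 ± 0.20 missed the threshold (limma, adjusted p = 0.0541). When 1 probe set was tested per gene, which leaves 13028 tests, it passed, as it did without any single HET array. With the spike-in block the difference was -0.18 ± 0.15 (95% interval -0.50 to 0.14). Between lower-ratio and higher-ratio HET arrays it was 1.09, and within the lower-ratio arrays KO minus HET was 0.09.

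**Figure D2:**
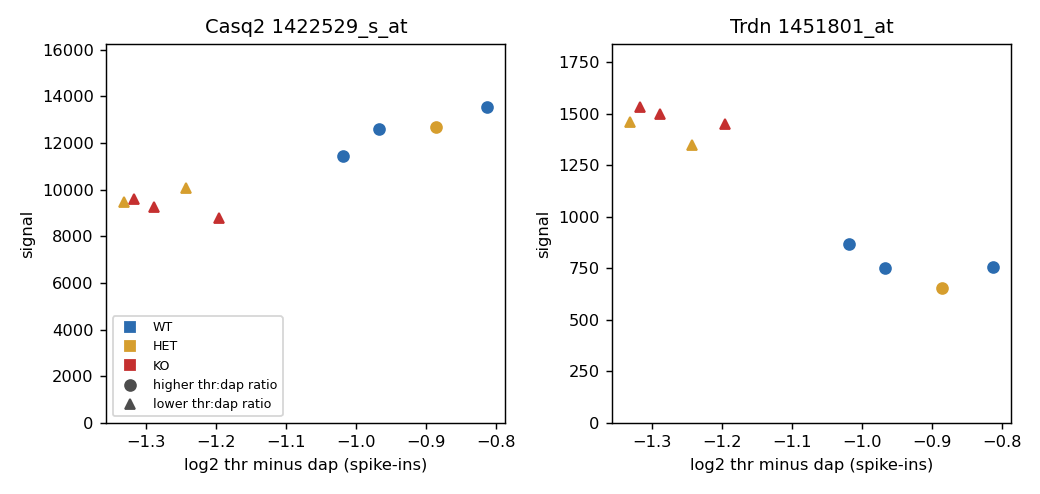
Signal of the Casq2 probe set and of the brightest Trdn probe set on each array against the log2 ratio of the spike-ins thr and dap on that array; colours give genotypes and shapes the spike-in set. The 4 higher-ratio arrays, HET replicate 1 among them, are above the 5 lower-ratio arrays in Casq2 and below them in Trdn.

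The other 5 Trdn probe sets did not repeat that pattern in full. In 1451940_x_at the readings were 128, 128 and 165 for WT, 133, 183 and 203 for HET, and 178, 196 and 238 for KO, which parted the arrays by spike-in set as 1451801_at did. Its KO minus WT difference was 0.49 ± 0.19 (limma, adjusted p = 0.196), and 0.01 ± 0.30 with the spike-in block. In 1426134_at KO (184 to 244) was above WT (145 to 158), but HET replicate 3, a lower-ratio array, read 124. The genotypes overlapped in 1426142_a_at (0.28 ± 0.16) and 1426144_x_at (0.25 ± 0.17), with -0.05 and 0.55 under the block, and in 1426134_at the difference of 0.41 ± 0.25 became -0.18. The 2 probe sets whose names end in _x_at, 1451940_x_at among them, are of a kind whose probes may match other genes.

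The probe set 1426143_at stood apart from the rest of Trdn. It read 1016, 339.6 and 808 for WT, 1469.6, 264 and 362 for HET, and 610.1, 913 and 449 for KO, a spread within each genotype wider than any difference between them. KO minus WT was -0.05 with a 95% interval of -1.07 to 0.96, and 2.14 ± 0.54 with the spike-in block (limma, unadjusted p = 0.00122, adjusted p = 0.493), where HET replicate 1, its highest reading, decides the value. The sources used here do not say which splice forms the 6 probe sets detect.

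**Figure D3:**
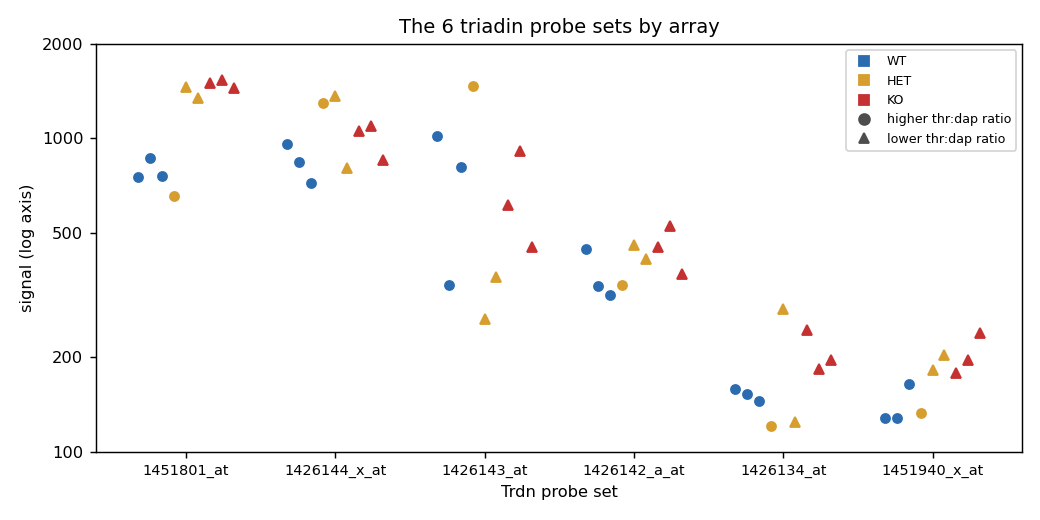
Signals of the 6 Trdn probe sets on every array on a log axis, with genotype as colour and spike-in set as marker shape. In 1451801_at and 1451940_x_at every lower-ratio array is above every higher-ratio array; in 1426143_at arrays of all genotypes are mixed.

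Ryr2 encodes the cardiac ryanodine receptor (chr13:11553099-12106945). Its brighter probe set, 1450123_at, read 1837, 1713 and 1429.6 for WT, 1657, 1639 and 1598 for HET, and 1648, 1755 and 1705 for KO. All HET and KO arrays lay inside the WT range. The KO minus WT difference was 0.04, with a 95% interval of -0.15 to 0.24 (limma, adjusted p = 0.881). It was 0.08 ± 0.16 with the spike-in block, with a wider 95% interval of -0.26 to 0.41. The dimmer 1421126_at read 37.6 to 71 in WT, 72.4 to 106 in HET and 51.5 to 101 in KO. KO minus WT was 0.37 ± 0.27 there, and 0.66 ± 0.49 with the spike-in block. HET was above WT on every array, by 0.56 ± 0.27 (limma, adjusted p = 0.485) and 0.75 ± 0.39 with the block, a difference that the brighter probe set did not have (-0.02 ± 0.09).

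Hrc encodes a histidine-rich calcium-binding protein of the store that is known to bind triadin (chr7:45335269-45338973). Its probe set 1419109_at read 2514, 2709.7 and 3079 for WT, 2947, 2295 and 2462 for HET, and 2368, 2472 and 2503 for KO. The KO arrays were below the WT arrays with almost no gap, at 88.4% of the WT mean (-0.17 ± 0.10, limma adjusted p = 0.43). With the spike-in block the value was 0.14 ± 0.14. The lower-ratio HET arrays were again lower than the higher-ratio one, with a difference of -0.31.

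Jph2 encodes junctophilin 2, which ties the store to the surface membrane (chr2:163336242-163398049). Its brighter probe set, 1455404_at, read 2332, 2074 and 2111 for WT, 2188, 2042 and 1908 for HET, and 1973, 1981 and 1844 for KO. The KO arrays were all below the WT arrays, at 89% of the WT mean (-0.17 ± 0.08, limma adjusted p = 0.351), and the spike-in block gave -0.02 ± 0.13. In the dimmer 1421453_at the genotypes overlapped, with 587 to 772 in WT, 567 to 863 in HET and 527 to 695 in KO, and KO minus WT was -0.07 ± 0.16, or 0.22 ± 0.27 with the block.

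Slc8a1 encodes NCX1, the sodium-calcium exchanger of the surface membrane (chr17:81373105-81738387). Its brightest probe set, 1425817_a_at, read 1059, 933 and 1098 for WT, 1122, 955 and 1015 for HET, and 819.5, 951 and 1019 for KO. The genotypes overlapped, and KO minus WT was -0.15 ± 0.11 (limma, adjusted p = 0.559), or 0.04 ± 0.18 with the spike-in block. In 1437675_at the readings were 1328, 959 and 1033 for WT, 956, 704 and 871 for HET, and 735, 896 and 869 for KO, with every WT array above all others. KO was 75.3% and HET 76.2% of the WT mean there, with differences of -0.39 ± 0.14 and -0.38 ± 0.14 that share the WT arrays (limma, adjusted p = 0.158 and 0.368). The spike-in block reduced them to -0.11 ± 0.22 and -0.19 ± 0.17. The 2 dim probe sets went apart, with 1420210_at at 209% and 1440201_at at 69.5% of WT in KO, both at readings under 73. With the block their differences of 0.77 and -0.37 became 0.41 and 0.19.

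**Figure D4:**
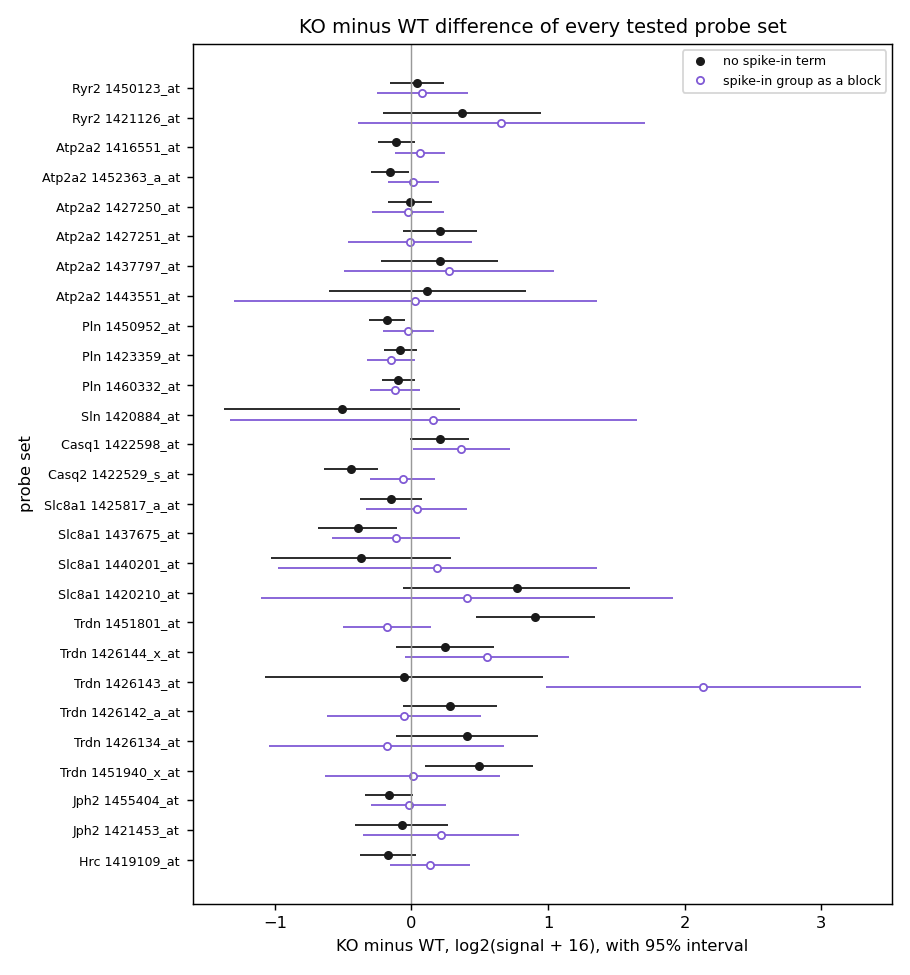
KO minus WT difference of each of the 27 tested probe sets on the log2(signal + 16) scale, with 95% intervals from limma; filled points have no spike-in term and open points have the spike-in set as a block. The filled points of Casq2 and of Trdn 1451801_at are away from 0 and their open points near it, while Trdn 1426143_at does the reverse.

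Whether probe sets of one gene changed by different amounts was tested on the array-by-array difference between each further probe set and the brightest of its gene, over all 10512 such pairs on the array. None of the 17 pairs of member genes was called between KO and WT, where 0% of all pairs were called. An unadjusted p under 0.05 was found for 2 of the 17, against 13.4% of all pairs. These were Trdn 1426142_a_at, which differed from 1451801_at by -0.62 ± 0.26, and Slc8a1 1420210_at, which differed from 1425817_a_at by 0.92 ± 0.39 (limma, adjusted p = 0.346 and 0.355). Under the block these were 0.13 ± 0.35 and 0.37 ± 0.70. Trdn 1426143_at differed from the brightest by -0.96, but with a standard error of 0.84, and by 2.32 ± 0.83 with the block. Between HET and WT 1 pair had an unadjusted p under 0.05, that of Slc8a1 1437675_at (-0.38 ± 0.16, adjusted p = 0.517, and -0.32 with the block), against 9.28% of all. Between KO and HET it was that of Slc8a1 1440201_at (-0.51 ± 0.20, adjusted p = 0.997, and -0.38 with the block), against 4.44% of all. By sign, the tested probe sets of Pln and Jph2 were all lower in KO and those of Ryr2 all higher, whereas those of Atp2a2, Slc8a1 and Trdn had both signs. Under the block the probe sets of Pln and Ryr2 still had one sign each, and those of Jph2 had both.

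No member was called between HET and WT or between KO and HET (limma). Between HET and WT 4 of 27 had an unadjusted p under 0.05, against 10.7% of all probe sets: Casq2, Slc8a1 1437675_at, and Trdn 1451801_at and 1426144_x_at. Between KO and HET 3 of 27 had one, against 4.35%: Atp2a2 1437797_at (0.52), Casq2 (-0.21) and Trdn 1451801_at (0.45). With the spike-in block their differences were 0.55, -0.09 and 0.09. HET was below WT in 14 of 27 (46.6% of all) and KO below HET in 15 of 27 (51.4% of all). Arrays did not overlap for 3 of 27 in each, against 12.9% and 10.2% of all. Of all probe sets 0% were called between HET and WT and 0.0074% between KO and HET. In neither was a member called with the spike-in block, against 0.0148% and 0% of all, and 3 and 2 of 27 had an unadjusted p under 0.05, against 7.17% and 4.09%. In Casq2 and Trdn 1451801_at HET replicate 2 read within the KO range, and replicate 3 between the KO and WT ranges, nearer to KO. Replicate 1 lay within the WT range in Casq2 and below it in Trdn. The HET minus WT differences of Casq2 (-0.23 ± 0.09) and Trdn 1451801_at (0.45 ± 0.20) put the HET means between those of WT and KO. Both turned under the spike-in block, to 0.02 ± 0.09 and -0.27 ± 0.12 (limma, adjusted p = 0.976 and 0.666). Without HET replicate 1 both were called between HET and WT, at -0.35 and 0.82 (limma, adjusted p = 0.0085 and 0.000182). The HET and KO comparisons share the WT arrays.

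Short windows at the starts of 7 of the 10 genes were read for the site that estrogen-related receptors are known to bind, TNAAGGTCA, and for its core AAGGTCA, which that site contains. The windows are RefSeq's (GRCm38.p6) and run from 250 bases before to 50 after a start. Atp2a2, Sln and Trdn had no entry. On both strands, TNAAGGTCA was in 0 of 8 member windows and in 1.28% of all 32851 windows, and AAGGTCA was in both windows of Jph2, in no other member, and in 4.72% of all. The windows of Casq2, the gene called between KO and WT, of its relative Casq1 and of Jph2 are shown, 5′ to 3′ on the strand of the gene, with the AAGGTCA match, read on the opposite strand as its complement, in capitals. They are chr3:102086165-102086464 on the plus strand for Casq2, chr1:172219846-172220145 on the minus strand for Casq1, and chr2:163397944-163398243 on the minus strand for Jph2.
Casq2: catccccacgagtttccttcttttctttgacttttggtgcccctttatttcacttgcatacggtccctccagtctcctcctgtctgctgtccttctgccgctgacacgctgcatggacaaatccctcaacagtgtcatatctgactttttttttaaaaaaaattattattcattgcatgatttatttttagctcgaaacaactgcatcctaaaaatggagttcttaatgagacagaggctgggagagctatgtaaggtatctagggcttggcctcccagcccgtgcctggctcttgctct
Casq1: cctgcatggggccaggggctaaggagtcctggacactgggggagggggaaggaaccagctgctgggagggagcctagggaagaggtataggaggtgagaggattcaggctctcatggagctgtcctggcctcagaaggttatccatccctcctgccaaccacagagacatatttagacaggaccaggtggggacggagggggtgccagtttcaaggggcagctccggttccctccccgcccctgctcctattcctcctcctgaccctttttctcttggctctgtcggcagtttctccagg
Jph2: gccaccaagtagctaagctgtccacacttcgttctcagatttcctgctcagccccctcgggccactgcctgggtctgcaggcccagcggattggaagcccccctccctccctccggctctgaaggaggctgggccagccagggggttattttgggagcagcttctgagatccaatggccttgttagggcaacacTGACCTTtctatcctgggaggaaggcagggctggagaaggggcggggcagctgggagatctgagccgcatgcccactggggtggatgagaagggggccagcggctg
The match in Jph2 ends 50 bases before the start on which the window shown was built. That start lies inside the span given above for the gene, and so does the match. Whether the match in the other Jph2 window is the same site was not looked at. A match is a description of letters and no evidence of binding, and its absence says only that the letters are not in these windows.

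A wider list of 62 genes of calcium handling was set beside the members: 55 were on the array and 50 were tested, with 107 probe sets. None was called in any of the comparisons (limma). Between KO and WT 16 probe sets (15.0%) had an unadjusted p under 0.05, against 15.7% of all, and 26 did not overlap (24.3%, against 23%). The median difference was 0.05. Genes were ranked by the p of their brightest probe set only, and some dimmer ones had smaller p than those named, such as Prkaca (0.55) between KO and WT and Cacna2d1 (-0.80) between HET and WT, picked after their values were seen. Of the genes with the smallest p so ranked, Akap7, an anchor of protein kinase A known to bind the phospholamban and SERCA2 complex, read 174, 149 and 117 for WT, 219.6, 219 and 232 for HET, and 256, 241 and 241 for KO. All KO and HET arrays were above all WT arrays, HET replicate 1 included. The KO minus WT difference was 0.70 ± 0.16 (limma, adjusted p = 0.051), and 0.67 ± 0.28 with the spike-in block. Jph1, the junctophilin of skeletal muscle, gave 75.8 ± 15.8 in WT and 137 ± 29.5 in KO (SD, n = 3 each), a difference of 0.73 ± 0.21 (limma, adjusted p = 0.10) and 0.93 ± 0.39 with the block.

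On the lower side, Asph, whose locus also makes junctin, a partner of triadin at the release channel, read 1250.5, 1279.5 and 1213 for WT, 1074, 1074 and 1147 for HET, and 1028, 973 and 1043 for KO. The genotypes did not overlap between KO and WT, and the difference was -0.29 ± 0.08 (limma, adjusted p = 0.0982), with -0.34 ± 0.14 under the spike-in block. Sri, which encodes sorcin, a calcium-binding regulator of the release channel, had -0.29 ± 0.09 and Prkar2a, a regulatory subunit of protein kinase A, -0.35 ± 0.10 (limma, adjusted p = 0.11 and 0.0943). With the block they gave -0.08 and -0.14. Fkbp1a, which encodes the immunophilin FKBP12 that binds ryanodine receptors, had -0.32 ± 0.08 in its brightest probe set (limma, adjusted p = 0.0733) and -0.02 ± 0.10 with the block. Its HET arrays read 6554, 5338 and 5313, so replicate 1 lay with WT as in Casq2, and 3 others of its probe sets, looked at after their values were seen, were higher in KO by 0.09, 0.10 and 0.13. Canx (0.25) and Atp2a1 (0.87, at signals of 20.0 in WT and 49.3 in KO) completed the genes of smallest p in this ranking, with 0.15 and 0.51 under the block. In the same ranking the smallest p between HET and WT were those of Akap7 (0.57), Camk2a (0.63), Canx (0.19) and Pde4d (0.31) among higher ones and Cav3 (-0.40), Sri (-0.27), Fkbp1a (-0.20) and Hax1 (-0.19) among lower ones. With the block the higher ones gave 0.55, 0.07, 0.13 and 0.48, and the lower ones -0.18, -0.13, -0.003 and -0.03. Between KO and HET the smallest p were those of Atp2a1 (1.19), Ppp1r1a (0.27), Ryr3 (0.88) and Ryr1 (0.75) among higher ones and Camk2b (-0.50), Ppp1r3a (-0.56), Speg (-0.20) and Fkbp1a (-0.12) among lower ones. All of these had an adjusted p of 0.993 (limma). Ryr3 and Ryr1 were dim, with means of 26.6 and 13.1 in HET and 55.9 and 31.6 in KO. With the block the higher ones gave 1.07, 0.35, 0.43 and 1.06, and the lower ones -0.39, -0.39, -0.16 and -0.02.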

How the data were processed

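The signals are intensities that the authors made with MAS5 and deposited, 1 array at a time; MAS5 is named in the submitters' processing notes, version not given in the sources used here. Every column's trimmed mean, as deposited, was 200. Symbols came from the platform annotation and were brought up to date through gene IDs in RefSeq's GRCm38.p6 table. Leaving out 64 controls, 27022 of 45037 probe sets had a mean of log2(signal + 16) at or above the 40th percentile (5.24) and were tested, each on its own. The pseudocount understates changes of dim genes. The tests used limma 3.58.1 under R 4.3.3 (1 mean per genotype over all 9 arrays, eBayes with an intensity trend, two-sided, Benjamini-Hochberg over all probe sets tested, calls at an adjusted p under 0.05). Pairs of probe sets of a gene were tested in the same way. The fits were tested on simulated data. Exact permutation tests were run with scipy 1.17.1, and figures drawn with matplotlib 3.10.9.

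The members, the gene lists and the spike-in term were chosen with earlier results of these data known. The genes named are all members, Esrrg, and of the wider list up to 4 genes with the smallest p of the brightest probe set in each direction. The alternatives were quantile normalization, a shift of arrays to one median, a pseudocount of 1 or 64, dropping the filter or raising it to the 60th percentile, 1 probe set or the mean of probe sets per gene, no trend, array weights, only the 6 arrays compared, a block for the replicate number or for the spike-in set, and 1 array left out at a time. The number of arrays limits the precision. Marker lists were summed over the brightest probe set of each gene.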

Additional observations from a re-analysis of the deposited data

How the results depend on the processing

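The number of member probe sets called between KO and WT, 1 as reported, was 0 under quantile normalization, with arrays shifted to one median, with a pseudocount of 1, with no filter or the 60th percentile filter, with probe sets averaged per gene, with no intensity trend and with the replicate or spike-in block. It was 2, Casq2 lower and Trdn higher, with a pseudocount of 64, with 1 probe set per gene, with array weights and with only the 6 arrays compared. Leaving out arrays gave 0 to 3: 0 without any single WT or KO array, 2 without HET replicate 2 or 3, and 3 without HET replicate 1 (Casq2, Trdn and Pln). The Casq2 call was lost in 14 of 20 alternatives, and the difference stayed below 0 in all 20, from -0.51 to -0.06. Between HET and WT the count was 0, and 2 without HET replicate 1. Between KO and HET it was 0 throughout.

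For the wider list between KO and WT the 0 calls became 1, Akap7, with a pseudocount of 64, with 1 probe set per gene or with the mean of probe sets, 6 with array weights and 7 with only the 6 arrays compared. Leaving out arrays gave 0 to 9, and 0 to 7 between HET and WT, the highest without HET replicate 1. Over all probe sets the 171 calls between KO and WT became 14 with one median (6 higher and 8 lower), 41 with a pseudocount of 1, 112 with the 60th percentile filter, 71 with gene means, 0 with no trend, 1006 with array weights, 1438 with 6 arrays, 84 with the replicate block and 1 with the spike-in block, and 11 to 1581 without single arrays. The Esrrg fall was -1.88 with no trend (limma, adjusted p = 0.0551) and -1.89 with the spike-in block (0.275). No pair of member probe sets was called under any alternative. The block by replicate number left the Casq2 difference at -0.44 with an adjusted p of 0.0573, just past the threshold. Same-numbered arrays of different genotypes had correlations of deviations from -0.04 to 0.04 over all probe sets. These values cannot tell whether a number marks a shared litter or day that acts on some genes. For Sln 1420884_at the block by replicate number left KO minus WT at -0.51 but took its standard error from 0.41 to 0.17 (limma, adjusted p = 0.176). The cause of these changes was not tested.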
